A study of Mus musculus with 6 samples.

Results

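The mouse carboxylesterase genes of families 1, 2 and 3 were followed in liver RNA at 48 h from PHx, a partial hepatectomy, in which a surgeon takes out some of the liver lobes and the rest regrows. The 10 genes Ces1c, Ces1d, Ces1e, Ces1f, Ces1g, Ces2a, Ces2c, Ces2e, Ces3a and Ces3b were taken by gene name from a deposited table of 34745 genes. Another 10 genes of that table carry a carboxylesterase name and are described after them. Of 6 libraries, 3 came from Sox9HKO mice (called HKO) and 3 from Sox9f/f mice (called WT), in which Sox9 is flanked by recombination sites and otherwise present. All animals were 12-week-old C57BL/6 mice after PHx, so there is no group without surgery. The labels give liver as the tissue and hepatocyte as the cell type. The Cre driver, the sex of the animals and whether each library is 1 mouse are not given in the sources used here. The p-values therefore measure the spread between these libraries, which may be technical.

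Carboxylesterases are serine hydrolases that cleave ester and amide bonds. In the liver most of them sit in the lumen of the endoplasmic reticulum (ER), where they act on drugs, pesticides and stored lipids. Family 1 enzymes prefer esters with a large acyl group, and family 2 enzymes prefer esters with a large alcohol group. Several family 1 members hydrolyse triacylglycerol, and the lipid they release can be used for very low density lipoprotein (VLDL).

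The catalytic serine lies in a motif written GXSXG, glycine, any residue, serine, any residue, glycine. Each of the 10 coding sequences held exactly 1 such motif. They are shown, read 5′ to 3′ from the GENCODE M21 transcripts, because they mark the shared core of the family. The codons of the motif are in capitals, with the 5 codons on either side in lower case.
Ces1c: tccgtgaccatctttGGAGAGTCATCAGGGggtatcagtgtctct
Ces1d: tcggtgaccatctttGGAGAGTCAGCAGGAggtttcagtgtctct
Ces1e: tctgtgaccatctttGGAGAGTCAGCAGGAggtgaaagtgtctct
Ces1f: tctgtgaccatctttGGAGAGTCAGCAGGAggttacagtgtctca
Ces1g: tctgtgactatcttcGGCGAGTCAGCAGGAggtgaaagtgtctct
Ces2a: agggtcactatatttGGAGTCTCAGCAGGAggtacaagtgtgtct
Ces2c: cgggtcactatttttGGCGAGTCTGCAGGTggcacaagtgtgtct
Ces2e: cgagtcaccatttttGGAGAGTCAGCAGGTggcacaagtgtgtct
Ces3a: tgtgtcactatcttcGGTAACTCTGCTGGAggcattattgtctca
Ces3b: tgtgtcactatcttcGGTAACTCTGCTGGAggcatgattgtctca
Ces1d, Ces1e and Ces1f have the same 15 motif bases, and Ces3a and Ces3b share another version.

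The end of the coding sequence differs more. ER carboxylesterases carry a retention signal of the form HXEL, histidine, any residue, glutamate, leucine, just before the stop codon. The last 30 bases are shown for this reason, with the 4 codons before the stop codon in capitals.
Ces1c: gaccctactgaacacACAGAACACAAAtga
Ces1d: ccatcccacagggaaCATGTTGAGCTCtga
Ces1e: caactgccgacagaaCACACTGAGCTGtga
Ces1f: caaccccagccatacCACAATGAGCTGtga
Ces1g: tcatcccatagggaaCATGTTGAACTGtga
Ces2a: ggttctcaggacaagCATGCAGAGCTGtag
Ces2c: gcttctcaggacaagCACAGGGAGCTTtag
Ces2e: gggtctcaggagaggCACAAAGAGTTGtag
Ces3a: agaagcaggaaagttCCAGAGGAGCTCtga
Ces3b: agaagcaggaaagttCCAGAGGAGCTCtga
In 7 of the 10 members these 4 codons read as HXEL. Ces1c, which encodes the carboxylesterase of mouse plasma, lacked it, and Ces3a and Ces3b ended in the same 4 codons, which are not HXEL.

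All 20 carboxylesterase genes lie on chromosome 8 (GRCm38, coordinates of the deposited table). The 9 genes of families 1 and 5 stand on the minus strand between 93020214 and 93535707, and the 11 genes of families 2, 3 and 4 on the plus strand between 104734003 and 105150109. Some members are near copies of each other, so short reads can fit more than 1 of them. Ces3a and Ces3b have 95.3% identical coding bases, and 25.6% and 26.2% of their 50-base stretches occur in another carboxylesterase transcript. Of Ces2c the share was 34.3%, mostly with the pseudogene Ces2d-ps, and of Ces1c 10.2%, mostly with Ces1b. The other 6 members shared 0.301% to 3.30% of their 50-base stretches. The sources used here do not say how reads that match several genes were counted, so the values of Ces3a, Ces3b, Ces2c and Ces1c are uncertain. Exons of Ces3a also overlap Gm45724 on the opposite strand, and no strand-marking step is described.

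The libraries held 16659778 to 21168233 counts, and a member had between 129 and 48405 counts in a library. HKO 2 stood apart. Its counts held Xist, the RNA of the inactive X chromosome, at 72.5 CPM (counts per a fixed library size, after TMM scaling), against 0.107 to 0.333 CPM elsewhere. It also held the Y-linked genes Ddx3y, Eif2s3y, Kdm5d and Uty at a summed 72.8 CPM, against 107 to 149 CPM in the other libraries. Cyp3a41a, a gene of female mouse liver, was at 17.6 CPM in HKO 2 and at 0 in the other 5 libraries. Xist and Y-linked RNA were thus found together in the library labelled HKO 2, and the results on the members are given with and without it. These marker genes were chosen after their values were seen. Endothelial markers summed to 631 CPM in HKO 2 and to 135 to 244 CPM elsewhere, and the 13 mitochondrial genes took 25.9% of its counts, against 12.1% to 16.3%. The part of these differences in the results was not tested. In such bulk RNA, fewer cells of a type and less RNA per cell cannot be told apart. Sox9 itself was at 5.14 ± 1.06 CPM (HKO) against 10.6 ± 3.41 CPM (WT, SD, n = 3), with no overlap.

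Members of the family moved in opposite directions. In HKO the lipid hydrolase genes Ces1d and Ces1f and the ER protein gene Ces1e rose, and Ces2e, Ces3a and Ces3b fell. Ces1c, Ces1g, Ces2a and Ces2c did not pass the test. All 10 passed the filter on low counts. The 6 called members are to be read against 23.2% of 12556 genes called at an adjusted p below 0.05 (12.1% higher, 11.2% lower). The test was edgeR's quasi-likelihood F-test with Benjamini-Hochberg adjustment over all these genes. The median log2 fold change, HKO minus WT, was -0.05 over the members and 0.02 over all genes tested. HKO libraries lay above all WT libraries in 4 members and below all of them in 3, where 22.6% and 21.6% of all tested genes did so (44.2% in all). Without HKO 2 the same counts of 4 and 3 members stood against 27.3% and 26.6% (54.0% in all). Without HKO 2, 3 members rose and 2 fell, Ces3a being lost, against 24.7% of 12716 genes called.

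**Figure D1:**
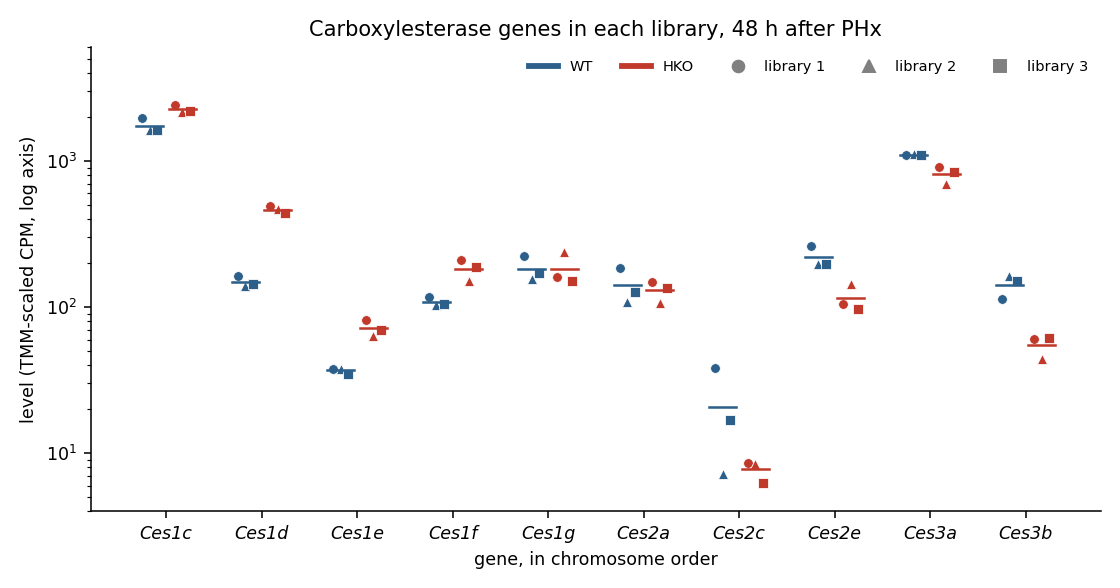
Level of each of the 10 carboxylesterase genes in TMM-scaled CPM on a log axis, with 1 point per library (blue WT, red HKO, symbols by library number) and a line at the mean of 3 libraries. Ces1c, Ces1d, Ces1e and Ces1f lie higher in every HKO library than in any WT library, and Ces2e, Ces3a and Ces3b lower.

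Ces1d encodes the triacylglycerol hydrolase of mouse liver, which mobilises stored fat for VLDL. Its RNA was measured at 491, 466 and 440 CPM in HKO 1, 2 and 3 and at 164, 139 and 144 CPM in WT 1, 2 and 3. The groups were far apart, and HKO 2 lay within the range of the other HKO libraries. The means were 466 ± 25.3 CPM and 149 ± 13.5 CPM (SD, n = 3), or 3.13-fold higher in HKO. In the fit the log2 fold change was 1.64 (SE 0.11, 95% interval 1.40 to 1.89, adjusted p = 0.000194 by edgeR). Without HKO 2 it was 1.64 again, and leaving out each library in turn gave 1.59 to 1.71.

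Ces1e encodes egasyn, the protein that holds the enzyme beta-glucuronidase in the ER. Its levels were 81.1, 63.8 and 70.0 CPM in HKO and 37.9, 37.8 and 35.03 CPM in WT. The WT libraries were close together, and the lowest HKO value was that of HKO 2. On the log2 scale the difference was 0.96 (SE 0.11, adjusted p = 0.00135 by edgeR), and 1.03 without HKO 2. Gusb, the gene of beta-glucuronidase itself, rose from 28.3 ± 1.36 to 58.4 ± 4.90 CPM (SD, n = 3), by 1.05 on the log2 scale (adjusted p = 0.000651 by edgeR).

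Ces1f, a close relative with lipid hydrolase activity, had 209, 152 and 187 CPM in HKO and 117, 103 and 105 CPM in WT. Here too HKO 2 was the lowest HKO library, yet above all WT libraries. Its log2 fold change was 0.75 (SE 0.13, adjusted p = 0.00683 by edgeR), and 0.87 without HKO 2. Ces1d, Ces1e and Ces1f are neighbours on the chromosome, with 3.38 kb between Ces1d and Ces1e and 26.6 kb between Ces1e and Ces1f. Together they span 114 kb. The 95% interval of Ces1d lay above those of Ces1e (0.70 to 1.22) and Ces1f (0.45 to 1.05), and the differences between these genes were not tested.

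Ces1c, next to Ces1d on the chromosome, encodes the secreted esterase of plasma. It was the most abundant member, at 2404, 2163 and 2206 CPM in HKO and 1970, 1626 and 1628 CPM in WT. Its groups did not overlap, WT 1 being the highest WT library and HKO 2 the lowest HKO library. The log2 fold change of 0.37 (SE 0.13, 95% interval 0.07 to 0.68) did not pass over all genes (adjusted p = 0.0786 by edgeR, and 0.0642 without HKO 2). DESeq2 called it (adjusted p = 0.0221), and no other alternative did.

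Ces1g, a liver lipid hydrolase on the other side of Ces1f, had nearly equal means, 184 ± 48.7 CPM (HKO) and 183 ± 35.5 CPM (WT, SD, n = 3). The libraries were 160, 240 and 151 CPM in HKO and 223, 155 and 172 CPM in WT. HKO 2 was the highest of all 6, and the HKO libraries ranged past the WT libraries on both sides. The fitted log2 fold change was 0.00 (95% interval -0.47 to 0.48), and -0.23 without HKO 2 (adjusted p = 0.332 by edgeR).

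Of the 3 family 2 members 1 passed the test. Ces2e fell from 219 ± 35.7 to 115 ± 25.1 CPM (SD, n = 3), or 52.5% of WT. Its levels by library were 104, 144 and 97.1 CPM in HKO and 260, 199 and 198 CPM in WT. HKO 2 lay nearest to WT, and the groups did not overlap. Its log2 fold change was -0.93 (SE 0.18, adjusted p = 0.00935 by edgeR), and -1.12 without HKO 2.

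Ces2c, which hydrolyses acylglycerols and drugs, varied most among the WT libraries. Its levels were 38.4, 7.25 and 16.9 CPM in WT 1, 2 and 3 and 8.60, 8.49 and 6.29 CPM in HKO. WT 1 was 5.31 times WT 2, and WT 2 lay among the HKO libraries. The log2 fold change of -1.42 (SE 0.52) did not pass (adjusted p = 0.0830 by edgeR, and 0.104 with -1.49 without HKO 2). Without WT 2 it was -1.83 and passed (adjusted p = 0.0174), and without WT 1 it was -0.65 (adjusted p = 0.238). The direction was the same in each case, but the size rested on WT 1 and WT 2.

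Ces2a, another drug-hydrolysing member, was at 149, 106 and 135 CPM in HKO and 186, 109 and 127 CPM in WT. The groups overlapped, with WT 1 highest and HKO 2 lowest. Its log2 fold change was -0.11 (95% interval -0.60 to 0.37, adjusted p = 0.733 by edgeR), so a change of up to these limits cannot be told from none, and it was 0.01 without HKO 2. WT 1 was the highest WT library in each of the 3 family 2 members, and in Ces1c, Ces1d, Ces1e, Ces1f and Ces1g as well. In Ces3b it was the lowest.

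Both family 3 genes were lower in HKO. Ces3b fell from 142 ± 25.5 to 55.4 ± 9.58 CPM (SD, n = 3), the largest fall among the called members, to 39.1% of WT. It was at 60.8, 44.4 and 61.1 CPM in HKO and at 113, 163 and 150 CPM in WT, with no overlap. Its log2 fold change was -1.36 (SE 0.18, adjusted p = 0.00197 by edgeR), and -1.22 without HKO 2, the lowest HKO library.

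Ces3a, its near-identical neighbour 25.3 kb away, fell less, from 1107 ± 11.4 to 813 ± 111 CPM (SD, n = 3). The WT libraries were almost equal at 1101, 1120 and 1100 CPM, and the HKO libraries were at 907, 691 and 842 CPM, HKO 2 being lowest. The log2 fold change was -0.45 (SE 0.13, adjusted p = 0.0408 by edgeR). The call held only with all libraries or without HKO 1 among the sets with 1 library left out. Without HKO 2 the log2 fold change was -0.34 (adjusted p = 0.0597), and the call was also lost without HKO 3, WT 1, WT 2 or WT 3 and with a replicate block (adjusted p from 0.0764 to 0.129). With 25.6% of its 50-base stretches shared with Ces3b, reads could be split between them.

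**Figure D2:**
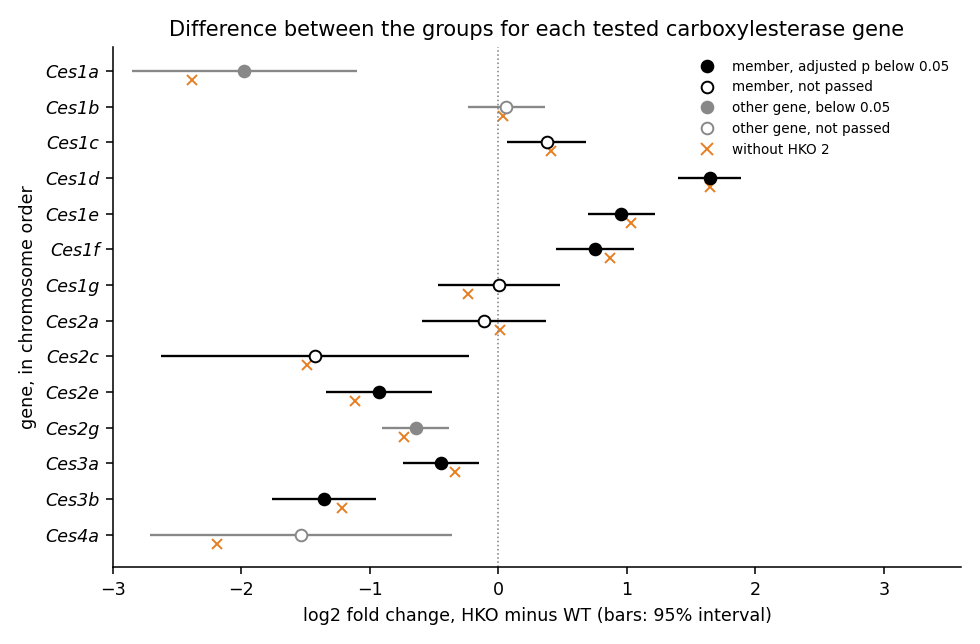
Log2 fold change, HKO minus WT, of the 14 tested carboxylesterase genes in chromosome order, with 95% intervals from edgeR. Filled points passed the test, grey marks genes outside the 10 members, and orange crosses give the value without HKO 2. Of the called members, Ces1d, Ces1e and Ces1f lie right of zero, and Ces2e, Ces3a and Ces3b left of it.

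Of the 3 members that rose, all end in HXEL codons. Of the 3 that fell, Ces2e does and Ces3a and Ces3b do not. Of the members that did not pass, Ces1g, Ces2a and Ces2c do and Ces1c does not. Ces3a and Ces3b are near copies of each other, and a link of these codons to the direction was not tested.

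Levels can be ranked between genes only per length, for which the deposited FPKM (counts per length and library total, not rescaled between libraries) was used. In WT, Ces1c led with 672 ± 111 FPKM and Ces3a followed with 541 ± 23.8 FPKM, and these were clear of all others. Ces1g (77.3 ± 19.0 FPKM) and Ces2e (69.9 ± 15.05 FPKM) came next and overlapped. Ces1d (47.5 ± 6.73 FPKM) overlapped Ces2a (45.0 ± 15.4 FPKM), and Ces2a overlapped Ces3b (36.2 ± 4.86 FPKM), while Ces3b lay above Ces1f in every library. Ces1f (26.3 ± 3.20 FPKM), Ces1e (12.3 ± 0.943 FPKM) and Ces2c (8.88 ± 7.19 FPKM) were lowest, the last pair overlapping.

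In HKO, Ces1d stood at rank 3 with 148 ± 11.0 FPKM, above Ces1g (76.1 ± 15.5 FPKM) with no overlap, having been at rank 5 in WT. Ces1c (868 ± 86.0 FPKM) and Ces3a (398 ± 73.3 FPKM) were again the leading pair. Ces1f (44.3 ± 9.003 FPKM), Ces2a (41.4 ± 8.77 FPKM) and Ces2e (36.2 ± 5.68 FPKM) followed with overlapping libraries, then Ces1e (23.8 ± 3.91 FPKM). Ces3b (14.3 ± 3.17 FPKM) stood at rank 9 after rank 7 in WT, and Ces2c (3.22 ± 0.482 FPKM) was last in both groups. Without HKO 2, a comparison chosen after seeing the data, the ranks in HKO were the same, with Ces1d at 152 FPKM and Ces1g at 67.3 FPKM, and Ces2a no longer overlapped Ces2e.

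The summed level of the family overlapped between the groups while its make-up differed. The 10 members summed to 4283 ± 259 CPM (HKO) and 3849 ± 315 CPM (WT, SD, n = 3), a ratio of 1.11. By library the sums were 4574, 4079 and 4195 CPM in HKO and 4212, 3658 and 3676 CPM in WT, so WT 1 lay within the HKO range. The direction of the sum rested on Ces1c, which did not pass: the other 9 members summed to 2025 ± 130 CPM (HKO) and 2107 ± 117 CPM (WT), a ratio of 0.961. The 5 family 1 members summed to 3161 ± 160 CPM (HKO) and 2219 ± 254 CPM (WT), with no overlap. The 2 family 3 members summed to 868 ± 120 CPM and 1249 ± 34.1 CPM, and the 3 family 2 members to 253 ± 12.5 CPM and 380 ± 91.4 CPM. Groups did not overlap in these sums either, each HKO library lying below every WT library. Of the summed FPKM of the members, Ces1d took 8.96 ± 0.427% in HKO and 3.09 ± 0.0639% in WT. Ces3a took 24.0 ± 2.14% and 35.4 ± 2.80%, and Ces1c 52.5 ± 0.394% and 43.6 ± 1.53%. Without HKO 2 the HKO shares were 8.72% for Ces1d, 25.2% for Ces3a and 52.3% for Ces1c, and that of Ces1g was 3.85% in place of 4.70%. The HKO sums without it were 4384 CPM over all members, 3200 CPM for family 1, 249.9 CPM for family 2 and 935 CPM for family 3. These sums and shares are descriptions with no test.

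**Figure D3:**
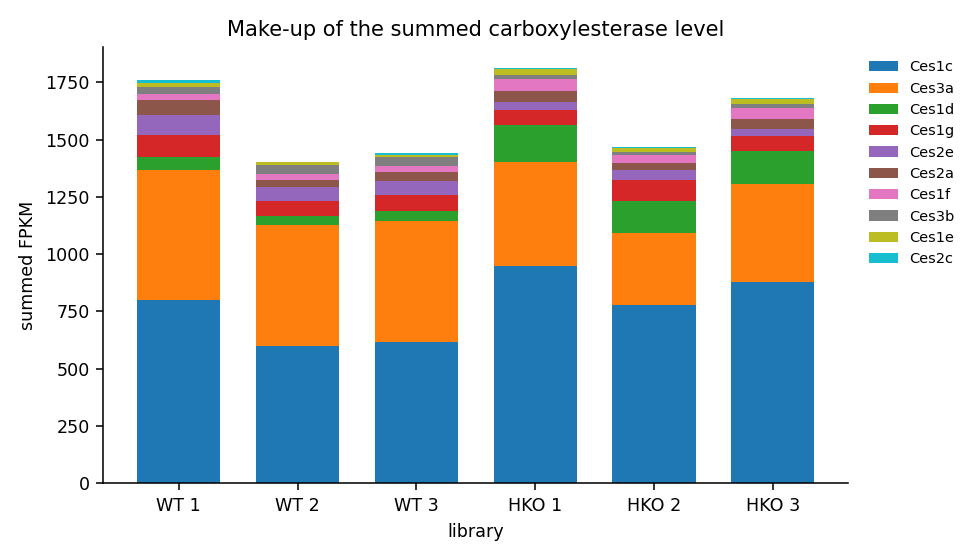
Summed FPKM of the 10 members in each library, stacked by gene, from 0. The bars range from 1404 to 1812 FPKM. The Ces1d part is wider in the 3 HKO libraries and the Ces3a part narrower.

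Of the 10 other carboxylesterase genes 4 passed the filter. Ces2g, which lies between Ces2f and Ces2h, fell from 55.6 ± 3.38 to 35.6 ± 4.06 CPM (SD, n = 3), a log2 change of -0.65 (SE 0.11, adjusted p = 0.00669 by edgeR). Ces1a, at the outer end of the family 1 cluster, fell with a log2 fold change of -1.98 (adjusted p = 0.00945 by edgeR) at counts of only 7, 13 and 8 in HKO and 32, 35 and 35 in WT. Its exons overlap Gm45463 on the opposite strand. Ces1b, beside Ces1c, was at 96.5 ± 5.75 CPM (HKO) and 92.4 ± 14.6 CPM (WT) and did not pass (log2 fold change 0.06, 95% interval -0.23 to 0.36). Ces4a had 3, 11 and 6 counts in HKO and 21, 16 and 17 in WT (log2 fold change -1.54, adjusted p = 0.0635 by edgeR). Without HKO 2 it passed, with -2.19 (adjusted p = 0.0136 by edgeR). Ces1a and Ces4a passed the filter on low counts through WT, where they were higher, so a fall was favoured.

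The remaining 6 were near or at 0. Ces2b and Ces2f had no count in any library, which allows up to 0.137 to 0.183 CPM per library at 3 counts, for counting error only. Ces1h and Ces5a had 1 count each over all libraries, Ces2d-ps had at most 3 in a library and Ces2h at most 7.

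Of the 20 nearest tested genes around both clusters 1 was called, where 23.2% of all tested genes were. The family 1 cluster holds no other gene of the table, and the only other gene of the table inside the family 2 to 4 cluster is the pseudogene Matr3-ps2. Beside the first cluster, Lpcat2 lay 101 kb away (log2 fold change 0.89, SE 0.54, adjusted p = 0.263). The nearest tested genes beside the second were Fam96b, 92.0 kb away (-0.01, SE 0.15, adjusted p = 0.966), and Cbfb, 20.6 kb away (-0.36, SE 0.13, adjusted p = 0.0811 by edgeR). Of the 5 nearest tested genes on each side of both clusters, only Aktip, 1886 kb from the first, was called (log2 fold change -0.47, adjusted p = 0.0352). Aktip was singled out after its value was seen.

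The 250 bases before the start of transcription are printed for Ces1e, which rose, and for Ces2e and Ces3b, which fell. They come from RefSeq on GRCm38.p6, where 7 members had an entry. Ces1e is at chr8:93229620-93229869 on the minus strand, Ces2e at chr8:104926010-104926259 and Ces3b at chr8:105083505-105083754 on the plus strand. Capitals mark a match, on either strand, to the TATA box TATAAA, to the box written CCAAT, or to the motifs TTGCNNAA and TTATNNAA.
Ces1e: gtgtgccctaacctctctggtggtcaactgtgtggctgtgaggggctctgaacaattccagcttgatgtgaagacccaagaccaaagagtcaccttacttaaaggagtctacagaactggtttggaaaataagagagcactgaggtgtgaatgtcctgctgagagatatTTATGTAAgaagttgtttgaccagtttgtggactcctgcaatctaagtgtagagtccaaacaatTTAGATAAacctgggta
Ces2e: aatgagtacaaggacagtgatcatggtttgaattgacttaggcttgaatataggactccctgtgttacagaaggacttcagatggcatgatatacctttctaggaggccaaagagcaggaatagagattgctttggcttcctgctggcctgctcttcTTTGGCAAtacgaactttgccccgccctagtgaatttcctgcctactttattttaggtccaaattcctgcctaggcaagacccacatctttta
Ces3b: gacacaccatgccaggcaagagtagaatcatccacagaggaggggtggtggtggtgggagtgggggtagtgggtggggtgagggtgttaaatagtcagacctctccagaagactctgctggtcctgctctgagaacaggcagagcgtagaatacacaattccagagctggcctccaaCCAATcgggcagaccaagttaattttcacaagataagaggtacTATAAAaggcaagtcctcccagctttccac
TATAAA began 30 bases before the start of Ces3b, and it was present in 2 of the 7 member promoters (Ces1g and Ces3b) and in 12.97% of 27025 promoters. CCAAT was in 5 of 7 and in 34.5% of all promoters. TTGCNNAA, a form bound by C/EBP factors, was in Ces1c, Ces2a and Ces2e and in 9.55% of all promoters. TTATNNAA, a form read by C/EBP and clock output factors, was in Ces1c, Ces1e and Ces1g and in 11.4%. The last pair of motifs can overlap, as it does in Ces1c. TTCNNNGAA, a form bound by STAT factors, was in none of the 7 windows and in 7.18% of all promoters. CAAAGTNCA, a form bound by HNF4, was in none of the 7 and in 1.21%. An HNF1 motif and a direct repeat of nuclear receptor sites, present in 0.411% and 0.037% of all promoters, were not found in the 7 either. A match or its lack describes the letters of these windows only.

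Genes of other ester and lipid hydrolases were more often higher than lower. Of 34 listed genes 31 were tested, of which 16 rose and 4 fell, leaving 11 that missed the threshold. The median of the tested genes was 0.38 (0.02 over all genes). Over all tested genes 12.1% were called higher and 11.2% lower. This list and those below were chosen with earlier results of these data known. Mgll, which splits monoacylglycerol, rose from 80.5 ± 6.20 to 258 ± 20.2 CPM (SD, n = 3), by 1.68 on the log2 scale (adjusted p = 0.000183 by edgeR), close to that of Ces1d. Pnpla2, the first lipase of lipid droplets, rose with 1.53, the endothelial lipase gene Lipg with 1.67, and the epoxide hydrolase gene Ephx2 with 1.44. The lipoprotein lipase gene Lpl fell with -1.75, from 86.4, 22.9 and 39.0 CPM in WT to 11.4, 23.0 and 9.93 CPM in HKO, WT 1 again standing apart and WT 2 level with HKO 2. Aadac, an ER esterase like the carboxylesterases, fell with -0.34, Pnpla7 with -0.39 and Lyplal1 with -0.45. These falls were weak. The call of Aadac was lost whichever library was left out, and 0 or 1 of the list's genes was called lower without HKO 1, HKO 3, WT 1, WT 2 or WT 3, and 0 with the replicate block.

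The partners that fold and retain ER proteins were mostly lower. Of 14 tested genes 11 fell and 2 missed the threshold, and Gusb, named above, was the only one called higher. The median over the list was -0.58, and 11.2% of all tested genes were called lower. Pdia6, Pdia4 and Pdia3, disulfide isomerases, and Hsp90b1, an ER chaperone, fell with log2 fold changes of -1.59, -1.12, -1.09 and -1.42. Kdelr1 and Kdelr2, receptors that return proteins with a retention signal to the ER, fell with -0.41 and -0.36 (adjusted p = 0.0372 and 0.0328 by edgeR), and were singled out for their role after their values were seen. The count lower was 9 without HKO 2, and 8 to 10 without any other library. Of the 7 members with HXEL codons, 3 rose (Ces1d, Ces1e and Ces1f), 1 fell (Ces2e) and 3 did not pass (Ces1g, Ces2a and Ces2c). Over all tested genes 12.1% were called higher, and a link between these members and the retention genes was not tested.

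In the list of regulators of liver drug and lipid genes, 8 of 27 tested genes rose and 1 fell (12.1% and 11.2% over all tested genes). The other 18 missed the threshold (list median 0.30). Nr1i3 (CAR), a nuclear receptor for foreign compounds known to induce drug-metabolising genes, rose from 64.4 ± 13.9 to 152 ± 5.19 CPM (SD, n = 3), by 1.24 on the log2 scale (adjusted p = 0.00155 by edgeR). Cebpb and the clock output gene Tef rose with 1.27 and 1.28. Por, which encodes the reductase of P450 enzymes and is no transcription factor, is counted among the 8 and rose most, with 2.12. Nr3c1, the glucocorticoid receptor gene, was the only one to fall, with -0.49 (adjusted p = 0.0255 by edgeR), and its call was lost without WT 1, WT 2 or WT 3.

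In the list of VLDL assembly and lipid droplet turnover 8 of 23 rose and 3 fell (12.1% and 11.2% over all tested genes). The other 12 missed the threshold (list median 0.38). Among the genes that rose, Plin4 and Plin5, coats of lipid droplets, and Apoa4, an apolipoprotein, had log2 fold changes of 2.80, 1.61 and 1.79 (Apoa4 not passing without WT 3, adjusted p = 0.0506). Cidec, which enlarges lipid droplets, rose with 4.32. The VLDL core genes Apob and Mttp had log2 fold changes of 0.08 (SE 0.39) and -0.01 (SE 0.09) and did not pass, and were likewise singled out for their role. Pla2g12b, Apoc3 and Surf4, genes of lipoprotein handling, fell with -0.65, -0.47 and -0.38. The calls of Apoc3 and Surf4 were lost without HKO 3, WT 2 or WT 3, and that of Apoc3 also without HKO 1. The counts were 10 higher and 3 lower without HKO 2, and 6 to 8 higher and 1 or 2 lower without HKO 1, HKO 3, WT 2 or WT 3.

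**Figure D4:**
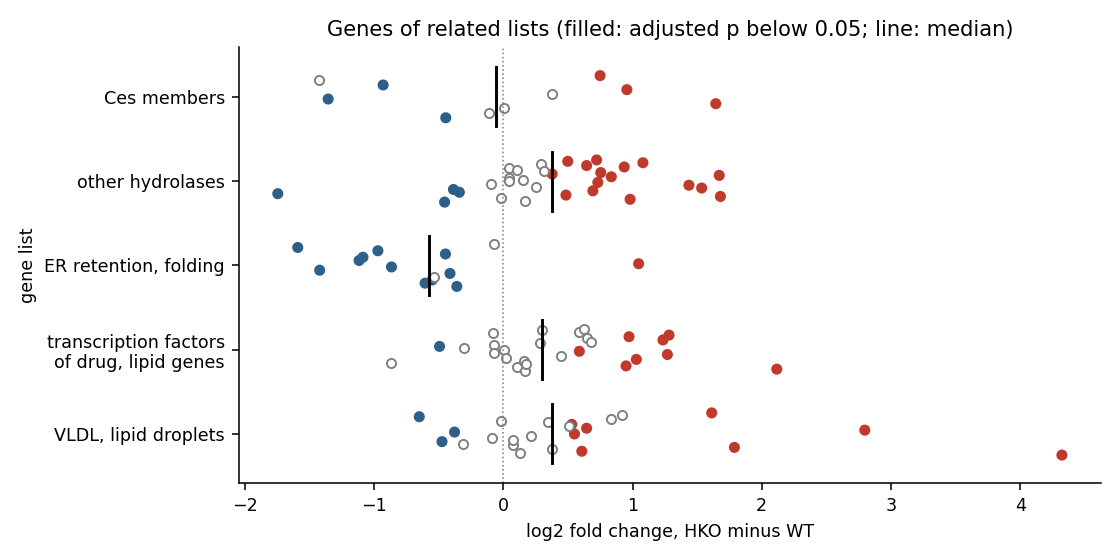
Log2 fold change, HKO minus WT, of every tested gene of the carboxylesterase members and of the 4 related lists, with 1 point per gene, spread vertically only for legibility. Red and blue points passed the test higher or lower, open points did not, and black lines mark medians of -0.05, 0.38, -0.58, 0.30 and 0.38 from top to bottom.

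Hepatocyte markers were abundant in every library. Alb was at 49761 to 77671 CPM. Of 20 tested markers 7 rose and 1 fell (12.1% and 11.2% over all tested genes), and 12 missed the threshold (median 0.36). Leaving out HKO 3 gave 4 higher and WT 3 gave 3 higher, with 0 lower in both cases. Macrophage markers summed to 365 to 546 CPM in HKO and 402 to 427 CPM in WT, with 13 of 14 called higher and Mpeg1 called lower. Mpeg1 was at 199 ± 9.34 CPM in WT and 74.1 ± 14.8 CPM in HKO (SD, n = 3), and weighed heavily in the WT sums. The count of macrophage markers called higher was 13 without HKO 2, 11 with the replicate block and 9 without any other single library. Stellate cell and fibroblast markers summed to 634 CPM in HKO 2 and to 110 to 185 CPM in the other libraries, with 3 of 13 called higher. That count was 2 without HKO 3, and 0 without WT 1, WT 2 or WT 3 and with the replicate block, and the list's median dropped from 1.12 to 0.21 without HKO 2. Of 12 endothelial markers 2 were called higher, 1 with any single WT library left out, and 5 without HKO 1 or with the replicate block, and the median dropped from 1.16 to 0.40 without HKO 2. Of the bile duct list 3 of 6 tested genes fell and 1 rose. The count lower was 2 without HKO 2, HKO 3 or with the block and 1 without WT 2 or WT 3, and the call of Sox9 (log2 fold change -1.05, adjusted p = 0.0284 by edgeR) was lost when any 1 of these 4 libraries was left out. Of 8 listed B and plasma cell genes 3 were tested, and all 3 rose. Their WT means were near 0 (Jchain 0.288, Ighm 0.624 and Igkc 0.686 CPM). They passed the filter on low counts through HKO, where they were higher, so a rise was favoured. With no filter 3 of 7 were called higher. Carboxylesterases are also made in fat and gut. The 8 fat cell markers were near 0, with Adipoq at 0 in every library and 1 tested gene that did not pass. In the gut list Sis, Lct, Alpi and Cdx2 were at 0 in every library, and Fabp2, the one gene tested, was called higher (47.8 to 53.9 CPM in WT, 73.8 to 90.2 CPM in HKO). The part of these other cells in the carboxylesterase results was not tested.

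The genes whose profile over the 6 libraries was most like that of Ces1c, the most abundant member, were Slc12a4, Whamm, Tmem259, Mettl7a1 and Pvrl2. Their log2 levels, centred over the libraries, differed from it by a root mean square of 0.0287 to 0.0425. Among the members the closest pair was Ces1e and Ces1f (0.125) and the most distant Ces1d and Ces3b (1.52). These are descriptions over the same 6 libraries.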

How the data were processed

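Liver RNA of 3 HKO and 3 WT libraries was sequenced. HISAT2 2.0.4, StringTie 1.3.0, mm10 and GRCm38.p4 are named, without role or settings, per the submitters' processing notes. The authors deposited whole-number read counts per Ensembl gene, not normalized, and an FPKM, which equals the count divided by column total and gene length (checked to within 0.00185% over 9308 genes, each with 50 or more counts per library).

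The counts were tested in R 4.3.3 with edgeR 4.0.16: filterByExpr (12556 genes kept), TMM scaling, quasi-likelihood F-test, no block, Benjamini-Hochberg adjustment over all genes, threshold 0.05. Standard errors were taken from the F statistic and the size of the fold change. Alternatives used limma 3.58.1, DESeq2 1.42.0, other scalings, no filter, FPKM with a pseudocount of 0.1, a replicate block and each library left out.

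Members and lists were chosen with earlier results of these data known. Named are all carboxylesterase genes, up to 4 called genes per direction and pathway list by size of change, the nearest tested gene on each side of a cluster and 5 genes of like profile. The result of 1 gene that this rule names is not reported here. All 20 carboxylesterase genes were found in GENCODE M21, 13 with the same coordinates.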

Additional observations from a re-analysis of the deposited data

How the results depend on the processing

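Over 14 alternatives, 130 of 140 values of the members kept their direction and side of the threshold, or did not pass in either case. Of the others, 8 were losses and 2 gains of a call. The losses were all of Ces3a: with limma on log2(FPKM + 0.1) (adjusted p = 0.0954), with no filter (0.0665), with the replicate block (0.0910) and without HKO 2, HKO 3, WT 1, WT 2 or WT 3 (0.0597 to 0.129). The gains were Ces1c by DESeq2 and Ces2c without WT 2. The number of members called higher was 3, or 4 by DESeq2, and 2 or 3 were called lower. Over all genes, 722 to 1589 were called higher and 682 to 1546 lower with a library left out, the fewest without WT 3.

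Same-numbered libraries deviated from their group means with correlations of -0.00192, 0.00248 and 0.0717. Those of differently numbered libraries ran from -0.0764 to 0.0556, so the last value lay just above that range. The labels state no pairing, and with 3 libraries per group these correlations cannot exclude one. With the replicate block 1245 genes were called higher and 1115 lower, and of the members only Ces3a changed its call. The summed level of the members kept a log2 ratio of HKO to WT between 0.10 and 0.22. Members had at least 129 counts in a library, and the values of Ces1a and Ces4a rest on far fewer.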
